A study of Mus musculus with 6 samples.

Results

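The type I interferon-stimulated antiviral genes described here are 39 genes chosen by symbol from a fixed list, out of 23453 gene rows in the deposited count table. All 39 symbols were found, and all 39 had enough counts to be tested among 12423 genes. RNA was sequenced from splenocyte cultures of WT OT1 mice on the C57BL/6 strain, in which most CD8 T cells recognise an OVA peptide. All cultures were given that peptide for 48 h and were then kept for 8 h in either FCM, in the samples titled Vehicle, or TCM, with 3 libraries per group. The labels give the cell type as cytotoxic T lymphocytes and leave both abbreviations unexplained, and no label says that the T cells were purified from the cultures or that replicates came from separate cultures or animals. The p-values therefore rest on the scatter among these libraries alone, and that scatter may be technical.

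Type I interferons are secreted when cells sense viral nucleic acid, and they act on neighbouring cells through a receptor made of Ifnar1 and Ifnar2. The receptor kinases Jak1 and Tyk2 activate transcription factors, among them Stat2, which join Irf9 in a complex that binds the interferon-stimulated response element (ISRE) in the promoters of antiviral genes. Interferon gamma, the product of activated T and NK cells, signals through a separate receptor to factors that bind GAS elements, and many antiviral genes respond to both kinds of interferon.

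The titles of the deposited tables conflict, and every direction below depends on that conflict. Each of the 6 columns of the deposited normalized table was a constant multiple of the count column of the same replicate number in the opposite group. Vehicle and TCM are used here as the count table titles its columns, and all directions turn around under the titles of the normalized table. Total counts per library ran from 17166687 to 25789381, so 1 count was worth 0.0374 to 0.0655 CPM (counts scaled to library depth with TMM, edgeR's normalization for library composition). The replicate 1 libraries of both groups stood apart: pairs of libraries that held one had a chi-square per gene of 58.7 to 104, against 4.87 and 7.12 for replicates 2 and 3 of Vehicle and TCM.

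The antiviral genes were lower in the TCM libraries in nearly every role, from the signalling factors to the effectors. Of the 39 genes 36 were lower, 1 was higher (Bst2) and 2 did not pass (Mx2 and Lgals3bp) at an adjusted p of 0.05 in edgeR's quasi-likelihood test with Benjamini-Hochberg adjustment over all genes. Among all 12423 tested genes 30.0% were called lower and 28.8% higher, 58.8% in either direction. The median log2 fold change was -1.44 over the 39 genes and -0.018 over all tested genes. A fall of at least 2-fold was called in 32 of the 39, against 10.5% of all tested genes. A fall of at least 4-fold was called in 11 members (2.95% of all genes), and 4 members fell at least 8-fold (1.08%). Without the replicate 1 libraries of both groups, 37 members were lower and 1 higher, with a median of -1.47. These are bulk libraries, in which fewer cells of a type and less RNA per cell cannot be told apart.

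**Figure D1:**
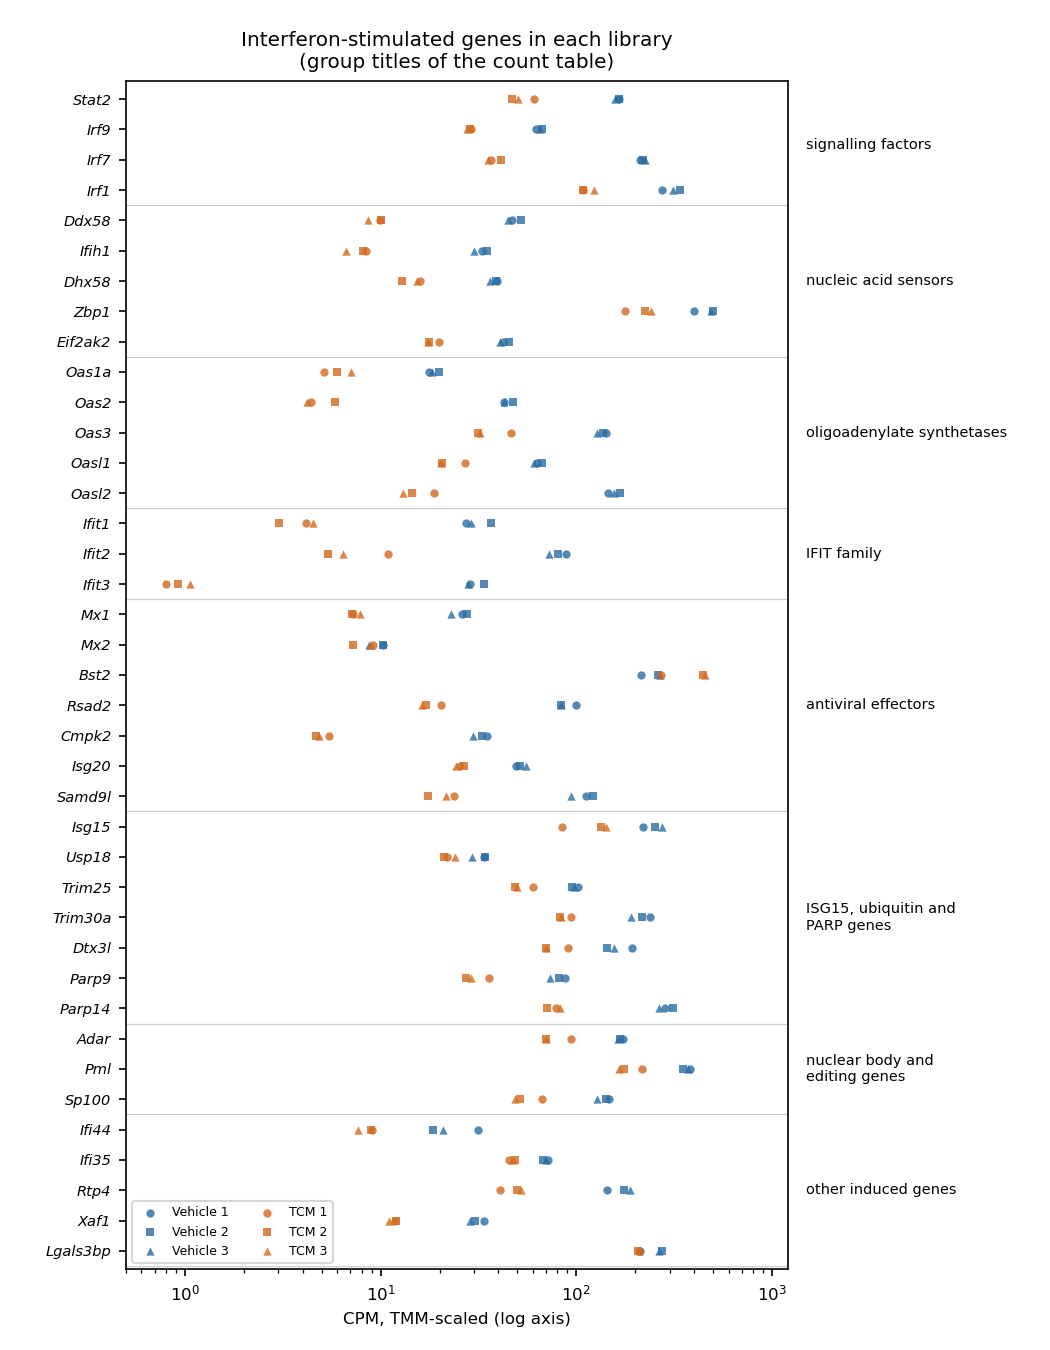
CPM (TMM-scaled, log axis) of each of the 39 genes in each of the 6 libraries, by role; blue marks libraries titled Vehicle in the count table and orange those titled TCM, with a symbol per replicate. The groups are separate for every gene but Mx2, with TCM below Vehicle except for Bst2, and Ifit3 has the lowest TCM values (0.798 to 1.07 CPM).

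The summed level of the 39 genes was 4725, 5006 and 4809 CPM in Vehicle replicates 1 to 3 and 2103, 2188 and 2246 CPM in the TCM replicates. The groups did not overlap, and replicate 1 was the lowest of each group. Of the 39 genes, 37 had all TCM values below all Vehicle values, against 33.6% of all tested genes. Bst2 alone had all TCM values above, which 30.6% of all tested genes had. These 37 are the 36 called lower and Lgals3bp.

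Among the signalling factors all 4 genes fell. Irf7, the transcription factor that amplifies interferon production, had 211, 220 and 225 CPM in the Vehicle libraries and 36.5, 41.0 and 35.4 CPM in the TCM libraries. That is a change of -2.54 ± 0.13 on the log2 scale (SE; adjusted p = 1.29e-06, edgeR), a 5.81-fold fall. Stat2, a part of the ISRE-binding complex, had 164, 164 and 158 CPM against 60.8, 47.1 and 50.2 CPM. It fell 3.08-fold (adjusted p = 2.27e-05, edgeR), and both genes showed no overlap between the groups. Irf9, another part of the complex, fell 2.28-fold, with 64.8 ± 2.33 CPM (SD, n = 3) in Vehicle and 28.4 ± 0.731 CPM in TCM. Irf1, a factor induced by both kinds of interferon, fell 2.72-fold from 308 ± 31.8 to 113 ± 8.83 CPM. In the GENCODE M21 annotation of GRCm38, the assembly also called mm10, Irf9 overlaps Rnf31 and Irf7 overlaps Phrf1, and without a stated strand setting the reads of such pairs may be mixed.

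The IFIT genes encode proteins that bind viral RNA and block its translation, and they had the lowest median of the roles, -3.40 on the log2 scale. They lie together on chromosome 19, with Ifit2 at 34550694 to 34576419, Ifit3 at 34583531 to 34588731 and Ifit1 at 34640871 to 34650009 (GRCm38, plus strand). Ifit3 had 28.8, 33.6 and 27.9 CPM in the Vehicle libraries and 0.798, 0.917 and 1.07 CPM in the TCM libraries. Its change of -5.01 ± 0.17 (adjusted p = 3.35e-07, edgeR) was the lowest log2 fold change of the 39 genes. Ifit2 had 88.7, 80.4 and 72.2 CPM against 11.0, 5.37 and 6.41 CPM, a 10.5-fold fall (adjusted p = 7.97e-06, edgeR). Ifit1 had 27.2, 36.6 and 29.1 CPM against 4.15, 3.01 and 4.50 CPM, a 7.92-fold fall (adjusted p = 2.97e-06, edgeR). In each of the 3 genes the lowest Vehicle value was several times the highest TCM value. Near-identical copies lie in the same cluster, and how reads shared between copies were counted is not given in the sources used here, so the split among IFIT genes is uncertain.

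RefSeq promoter windows on GRCm38.p6, running from 250 bases before to 50 bases after a gene's start, were searched on both strands for the core of the ISRE, written GAAANNGAAA. The windows of Ifit3 and Ifit1 are shown because these genes fell the furthest of the ISRE-holding members in this family, with the matches in capitals. The Ifit3 window is chr19:34583279-34583578 and the Ifit1 window chr19:34640639-34640938, both on the plus strand and written 5′ to 3′.
Ifit3: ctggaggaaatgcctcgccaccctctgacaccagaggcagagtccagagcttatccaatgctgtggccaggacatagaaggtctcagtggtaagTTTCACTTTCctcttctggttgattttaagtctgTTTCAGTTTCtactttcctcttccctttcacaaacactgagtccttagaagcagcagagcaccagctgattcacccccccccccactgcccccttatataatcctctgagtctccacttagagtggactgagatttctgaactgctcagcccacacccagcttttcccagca
Ifit1: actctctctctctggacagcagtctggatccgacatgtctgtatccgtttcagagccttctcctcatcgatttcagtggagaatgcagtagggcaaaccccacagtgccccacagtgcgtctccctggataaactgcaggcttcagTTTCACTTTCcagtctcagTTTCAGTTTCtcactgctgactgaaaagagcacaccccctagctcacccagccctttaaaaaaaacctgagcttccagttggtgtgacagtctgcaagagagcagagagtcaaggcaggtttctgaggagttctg
Each window holds 2 matches with the same letters, TTTCACTTTC and then TTTCAGTTTC, read on the other strand of the motif as written. Neither of the 2 windows of Ifit2 held one, although Ifit2 fell as well.

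All 5 oligoadenylate synthetase genes fell, with a median of -1.88. Oas1a, Oas2 and Oas3 make the signal that activates RNase L on sensing double-stranded RNA, while Oasl1 and Oasl2 encode related proteins. Oas2 had 42.5, 47.6 and 42.5 CPM in Vehicle and 4.42, 5.83 and 4.21 CPM in TCM. Its change was -3.20 ± 0.15 (adjusted p = 8.46e-07, edgeR), and its neighbour Oas3, 3.2 kb away on chromosome 5, fell less, by 1.88 on the log2 scale, from 136 ± 7.82 to 36.7 ± 8.30 CPM. Oasl2 had 145, 168 and 157 CPM against 18.8, 14.5 and 13.0 CPM, a change of -3.34 ± 0.17 (adjusted p = 1.17e-06, edgeR). Oasl1 lies 11.0 kb from Oasl2 and changed by -1.48 ± 0.14, from 63.3 ± 3.20 to 22.6 ± 3.67 CPM. Oas1a, whose near-identical copies make its reads uncertain, fell 3.07-fold from 18.6 ± 1.13 to 6.07 ± 0.964 CPM. Neighbouring genes of this family thus fell by different amounts, and the difference between them was not tested.

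The 5 sensors of foreign nucleic acid also fell, with a median of -1.37. Ddx58, which encodes the RNA helicase RIG-I, had 47.0, 52.4 and 44.9 CPM in Vehicle and 9.95, 10.1 and 8.60 CPM in TCM (log2 change -2.33 ± 0.13, adjusted p = 1.46e-06, edgeR). Ifih1, which encodes the sensor of long double-stranded RNA MDA5, had 32.9, 34.8 and 29.9 CPM against 8.41, 8.12 and 6.69 CPM, a 4.21-fold fall (adjusted p = 3.79e-06, edgeR). For both sensors the groups were far apart relative to their spread. Dhx58, which encodes their regulator LGP2, fell 2.59-fold, and Eif2ak2, which encodes the translation-blocking kinase PKR, fell 2.33-fold. Zbp1, a sensor of Z-form nucleic acid that can trigger cell death, fell 2.16-fold from the highest level in CPM of this role, 463 ± 56.0 to 214 ± 32.9 CPM. The Ddx58 window (chr4:40239776-40240075, minus strand, 5′ to 3′) is shown because it ranks next to Ifit3 by p among the members with an ISRE core match, and its match, in capitals, lies just after the start.
Ddx58: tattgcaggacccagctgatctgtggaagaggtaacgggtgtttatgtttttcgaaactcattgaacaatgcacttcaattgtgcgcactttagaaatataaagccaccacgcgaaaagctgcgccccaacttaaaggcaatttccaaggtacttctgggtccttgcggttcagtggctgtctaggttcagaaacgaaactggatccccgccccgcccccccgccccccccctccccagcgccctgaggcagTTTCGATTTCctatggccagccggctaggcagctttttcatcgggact

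Antiviral effectors were the role with mixed calls: 5 of 7 fell, Bst2 was higher and Mx2 did not pass. Rsad2 encodes viperin, which makes a chain-terminating nucleotide with the help of the kinase encoded by Cmpk2, and the genes lie 12.8 kb apart on chromosome 12. Rsad2 had 99.3, 83.3 and 83.2 CPM in Vehicle and 20.3, 17 and 16.4 CPM in TCM (log2 change -2.31 ± 0.14, adjusted p = 2.83e-06, edgeR). Cmpk2 had 35.1, 33.1 and 29.5 CPM against 5.43, 4.65 and 4.83 CPM (log2 change -2.71 ± 0.13, adjusted p = 9.04e-07, edgeR). Both genes of the pair were lower in every TCM library. Samd9l, a restriction factor of poxviruses, fell 5.21-fold, and the exonuclease gene Isg20 fell 2.04-fold from 52.0 ± 2.88 to 25.5 ± 1.19 CPM.

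The Mx genes encode dynamin-like GTPases, and C57BL/6 mice are known to carry a defective Mx1 allele. In the GENCODE M21 annotation Mx1 is protein-coding and Mx2 is a polymorphic pseudogene, so neither can be taken as the intact gene here. Mx1 and Mx2 are neighbours 72.4 kb apart on chromosome 16. Mx1 fell 3.44-fold, from 25.5 ± 2.36 to 7.41 ± 0.396 CPM (adjusted p = 6.45e-06, edgeR). Mx2 had 10.3, 10.3 and 8.72 CPM in Vehicle and 9.10, 7.20 and 8.94 CPM in TCM, so the groups overlapped. Its log2 change was -0.21 ± 0.14 (adjusted p = 0.223, edgeR), and it passed as lower only with the length trend removed and the replicate block together (-0.31, adjusted p = 0.0261, edgeR).

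Bst2 encodes tetherin, which holds budding virus particles at the cell surface, and it was the 1 member called higher. It had 214, 262 and 267 CPM in the Vehicle libraries and 271, 446 and 457 CPM in the TCM libraries. The groups were separate by a small margin, with the replicate 1 library the lowest of each group. Its log2 change was 0.66 ± 0.22 (adjusted p = 0.0261, edgeR). The call was lost on leaving out any library except TCM replicate 1 (adjusted p between 0.0553 and 0.105, edgeR), and with the trend of fold change on exon length removed the value became -0.023 (adjusted p = 0.935, edgeR). The windows of Rsad2 (chr12:26456403-26456702, minus strand) and Bst2 (chr8:71537423-71537722, minus strand) are shown together, 5′ to 3′, because both hold the ISRE core, in capitals, while their fold changes have opposite signs.
Rsad2: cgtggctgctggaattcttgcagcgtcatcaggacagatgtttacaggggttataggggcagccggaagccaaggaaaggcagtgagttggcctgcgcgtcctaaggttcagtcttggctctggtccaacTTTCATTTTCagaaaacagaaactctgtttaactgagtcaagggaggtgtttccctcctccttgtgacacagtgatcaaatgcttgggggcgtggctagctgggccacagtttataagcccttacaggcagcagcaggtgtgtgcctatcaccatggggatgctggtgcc
Bst2: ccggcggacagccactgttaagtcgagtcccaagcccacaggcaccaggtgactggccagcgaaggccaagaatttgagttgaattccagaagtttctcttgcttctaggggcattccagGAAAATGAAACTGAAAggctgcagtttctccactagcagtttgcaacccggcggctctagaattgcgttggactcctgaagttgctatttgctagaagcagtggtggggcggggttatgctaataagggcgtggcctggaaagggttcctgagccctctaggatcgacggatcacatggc
In the Bst2 window 2 matches overlap each other to form the capital run, and the second element searched (below) overlaps them. A match of these letters is a description of the window and says nothing about binding.

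The genes of ISG15 conjugation, ubiquitin ligases and PARP proteins all fell (7 of 7), with a median of -1.09. Parp14, an ADP-ribosyltransferase gene, had 284, 313 and 263 CPM in Vehicle and 78.6, 70.6 and 82.7 CPM in TCM (log2 change -1.89 ± 0.14, adjusted p = 1.04e-05, edgeR). Parp9 had 87.3, 81.4 and 73.6 CPM against 35.8, 27.4 and 29.1 CPM (log2 change -1.39 ± 0.14, adjusted p = 5.60e-05, edgeR). The groups stayed apart for both PARP genes. Dtx3l, the ubiquitin ligase that pairs with the Parp9 protein, fell 2.13-fold, and since its annotated span overlaps that of Parp9 on the other strand their reads cannot be fully separated.

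Isg15, a ubiquitin-like protein gene, fell 2.08-fold from 249 ± 27.1 to 120 ± 31.0 CPM (adjusted p = 0.00223, edgeR), and Usp18, whose product removes ISG15 and restrains the interferon receptor, fell 1.45-fold from 32.4 ± 2.67 to 22.3 ± 1.48 CPM. Usp18 had the fold change nearest to 1 among the 36 genes called lower. Trim25, the ligase gene of the RIG-I pathway, fell 1.85-fold, and Trim30a, one of several similar mouse genes with uncertain reads, fell 2.48-fold. Isg15 has short exons (756 bases), and with the length trend described below removed its log2 change moved from -1.06 to -1.79.

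All 3 genes of nuclear bodies and RNA editing fell, with a median of -1.11. Adar, the editor of double-stranded RNA, had 173, 167 and 164 CPM in Vehicle and 93.8, 70.2 and 69.6 CPM in TCM. Pml, the scaffold gene of nuclear bodies, had 383, 353 and 371 CPM against 217, 175 and 165 CPM. Sp100, another nuclear body gene, had 147, 141 and 127 CPM against 66.7, 51.7 and 48.5 CPM. In all 3 genes TCM replicate 1 was the highest of its group and still below every Vehicle library. They fell 2.15-fold, 1.99-fold and 2.49-fold (adjusted p = 0.000333, 0.000654 and 0.000133, edgeR), and Adar overlaps Chrnb2 in the annotation.

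Of the remaining 5 induced genes 4 fell. Xaf1, a gene linked to cell death, had 33.8, 30.3 and 28.5 CPM in Vehicle and 11.8, 12 and 11.0 CPM in TCM (adjusted p = 1.80e-05, edgeR). Rtp4, a chaperone gene, had 143, 175 and 189 CPM against 40.7, 49.7 and 52.1 CPM, a 3.55-fold fall (adjusted p = 2.55e-05, edgeR). The libraries of each group kept well apart for Xaf1 and Rtp4. Ifi44 fell 2.76-fold, with the widest relative spread in Vehicle (23.7 ± 6.99 CPM, replicate 1 highest), and Ifi35 fell 1.48-fold. Lgals3bp, a secreted glycoprotein gene, had 211, 273 and 263 CPM in Vehicle and 208, 207 and 209 CPM in TCM. Its log2 change was -0.26 ± 0.15 (adjusted p = 0.152, edgeR), with Vehicle replicate 1 close to the TCM values. With the replicate block, it passed at -0.25 (adjusted p = 0.031, edgeR), and without the replicate 1 libraries it passed at -0.38 (adjusted p = 0.000196, edgeR). It also passed without Vehicle replicate 1 (-0.37, adjusted p = 0.0485, edgeR) and with libraries scaled by their totals alone (-0.47, adjusted p = 0.0326, edgeR). With the length trend removed it passed at -0.48 (adjusted p = 0.0225, edgeR), and with the block as well at -0.47 (adjusted p = 5.28e-05, edgeR). Its window (chr11:118401910-118402209, minus strand, 5′ to 3′) is shown as that of a member that was not called and holds no ISRE core match.
Lgals3bp: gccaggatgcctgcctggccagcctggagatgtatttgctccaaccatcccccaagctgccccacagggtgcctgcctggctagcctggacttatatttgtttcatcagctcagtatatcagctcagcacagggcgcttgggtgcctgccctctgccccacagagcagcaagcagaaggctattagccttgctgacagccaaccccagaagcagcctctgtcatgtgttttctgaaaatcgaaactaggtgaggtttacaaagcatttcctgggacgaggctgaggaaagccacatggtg

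**Figure D2:**
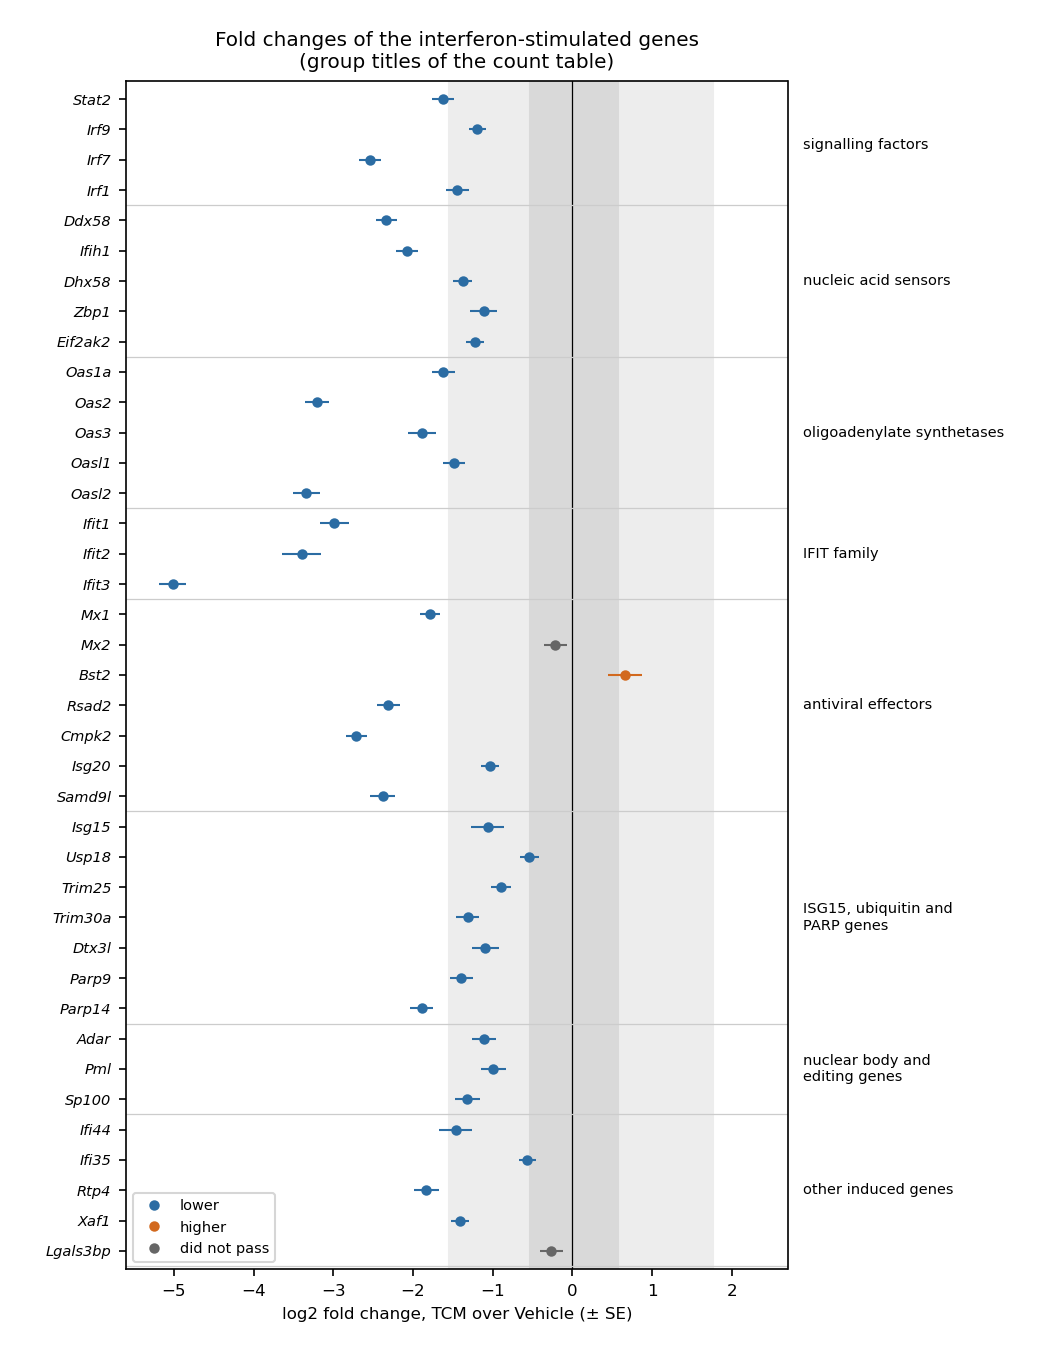
Log2 fold change of TCM over Vehicle (count-table titles) with its standard error for each of the 39 genes; dark and light grey bands hold the middle 50% and 90% of all 12423 tested genes. All 5 oligoadenylate synthetase and sensor genes and all 3 IFIT genes are below 0, and Bst2 is the 1 gene above 0.

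Of the 39 genes 30 had a promoter window. The ISRE core was in at least 1 window of 12 of these 30 (40.0%), against 3.92% of the tested genes with a window. Counted by window, it was in 33.3% of the members' windows and 3.44% of all 32851 windows of that length. The median log2 fold change was -1.75 in the 12 genes with a match, which include Bst2, and -1.36 in the 18 without. The core of the GAS element was searched as TTCNNNGAA on both strands. It was in a window of 8 of the 30 genes (26.7%), against 8.64% of the tested genes with a window. Counted by window, it was in 20.5% of the members' windows and 8.30% of all windows. The 8 genes are Irf1, Eif2ak2, Oas1a, Ifit2, Bst2, Isg20, Adar and Ifi35, and in 1 window, that of Bst2, the motifs overlapped. No match says only that these letters are not in this window.

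Levels were compared between genes per exon length, as CPM per kilobase of merged exons. In the Vehicle libraries Isg15 had the highest mean (330 ± 35.8, SD, n = 3), followed by Bst2 (274 ± 32.0), Zbp1 (131 ± 15.9), Lgals3bp (87.5 ± 11.8) and Rtp4 (79.2 ± 11.0). Lgals3bp and Rtp4 differed by less than their spread. In the TCM libraries Bst2 ranked above Isg15, with 434 ± 116 against 158 ± 41.0 CPM per kilobase. Irf7 moved from rank 8 to rank 12 of the 39.

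The interferons themselves were next examined. Of 18 type I interferon genes in the table none had enough counts to be tested, and 11 had 0 counts in all libraries. Ifnb1, the gene of interferon beta, had 3, 5 and 3 counts in Vehicle and 3, 3 and 6 counts in TCM, and no other type I gene exceeded 3 counts in a library (Ifna1, Ifna2, Ifna4, Ifna5, Ifna9 and Ifnz had any). The interferon lambda genes Ifnl2 and Ifnl3 had at most 2 counts in a library and were not tested. A difference in type I interferon transcripts was therefore not detectable at this depth. Ifng, the gene of interferon gamma, had 812, 747 and 869 CPM in Vehicle and 1579, 2103 and 2354 CPM in TCM. It rose 2.49-fold (log2 change 1.31 ± 0.20, adjusted p = 0.000636, edgeR), opposite to the antiviral genes in the same libraries.

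Among the receptors, Ifnar1 had 51.7, 48.4 and 46.6 CPM in Vehicle and 40.5, 32.5 and 33.4 CPM in TCM, a 1.38-fold fall (adjusted p = 0.0117, edgeR). Without TCM replicate 2 its call was lost (adjusted p = 0.0612, edgeR). Ifnar2 did not pass, with 37.1 ± 2.24 and 38.0 ± 4.63 CPM and a log2 change of 0.03 ± 0.13. Nor did the interferon gamma receptor genes, at -0.26 ± 0.12 for Ifngr1 and 0.06 ± 0.11 for Ifngr2. However, Ifngr1 passed as lower with the replicate block (-0.27, adjusted p = 0.0147, edgeR). The same held without TCM replicate 1 (-0.35, adjusted p = 0.0201, edgeR) and without both replicate 1 libraries (-0.34, adjusted p = 0.00206, edgeR). It also passed with the length trend removed (-0.48, adjusted p = 0.00972, edgeR), and with the block as well (-0.48, adjusted p = 9.14e-06, edgeR). Il10rb, a subunit of the interferon lambda receptor, was at 0.01 ± 0.11. The specific subunit of that receptor, Ifnlr1, went from 10.5, 8.12 and 9.0 CPM to 0.798, 0.851 and 0.506 CPM, a 12.8-fold fall (adjusted p = 2.42e-06, edgeR). The directions of Ifnar2, Ifngr2 and Il10rb, and of Socs1 among the inhibitors, flip when libraries are scaled by their totals alone, a setting that moves the median of all genes from -0.018 to -0.23.

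The genes of the receptor kinases Tyk2, Jak2 and Jak1 all fell (adjusted p = 0.000135, 0.00135 and 0.0178, edgeR). Tyk2 fell 2.48-fold from 71.2 ± 5.03 to 28.7 ± 5.63 CPM, Jak2 2.08-fold from 139 ± 24.8 to 66.7 ± 13.7 CPM and Jak1 1.38-fold from 133 ± 14.6 to 96.6 ± 8.47 CPM. Jak1 lost its call without Vehicle replicate 2 or TCM replicate 2 (adjusted p = 0.0871 and 0.0929, edgeR), or with the length trend removed (adjusted p = 0.0745, edgeR). Of 10 genes that restrain the receptor 2 fell, 1 rose and 7 did not pass, beside 30.0% of all tested genes called lower and 28.8% higher. Socs3, a feedback inhibitor of STAT signalling, rose 2.48-fold from 306 ± 71.8 to 758 ± 180 CPM, while the phosphatase gene Ptpn6 fell 1.42-fold (its call lost without TCM replicate 2, adjusted p = 0.0530, edgeR) and Pias1 1.37-fold (its call lost with the length trend removed, adjusted p = 0.0541, edgeR). Socs1, the classical feedback gene of interferon signalling, did not pass (log2 change 0.16 ± 0.28, adjusted p = 0.636, edgeR). Without both replicate 1 libraries Socs1 passed as higher (0.25, adjusted p = 0.00794, edgeR).

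Of 70 further interferon-stimulated genes 66 were tested, of which 53 fell, none rose and 13 did not pass, with a median of -1.09. Among all tested genes 30.0% were called lower and 28.8% higher, with a median of -0.018. At an unadjusted p under 0.05, 1 gene of that list was higher in edgeR. No gene of it was called higher by limma-voom either, while DESeq2 called 1 and the fit with the replicate block 2. The 4 with the smallest p included I830012O16Rik, an older symbol of Ifit3b, which had 178, 244 and 215 counts in Vehicle and 4, 1 and 2 counts in TCM. Gm14446, an older symbol of Ifit1bl1, fell 21.1-fold. Uba7, which encodes the activating enzyme of ISG15, fell 5.62-fold from 70.1 ± 5.04 to 12.5 ± 0.707 CPM, and Pyhin1, of the DNA-binding PYHIN family, fell 7.53-fold. The genes that copy the Ifit family thus fell with it, and shared reads between copies may be part of that value.

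**Figure D3:**
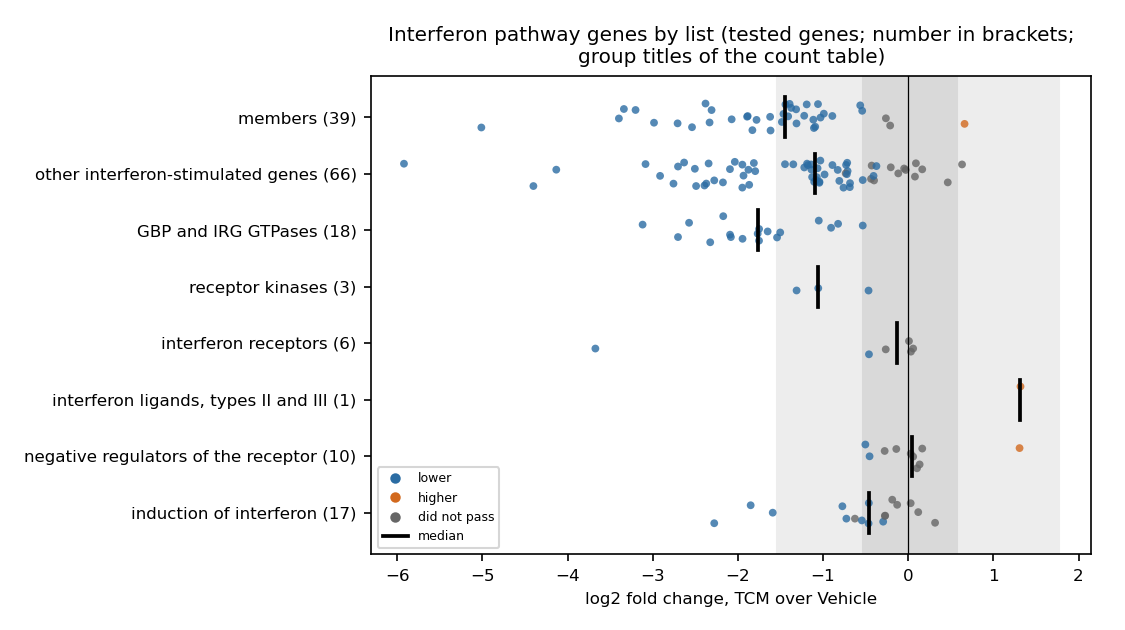
Log2 fold change of TCM over Vehicle (count-table titles) for each tested gene of the 39 antiviral genes and of 7 lists of the interferon pathway; bars are list medians and grey bands hold the middle 50% and 90% of all tested genes. The lists of interferon-stimulated genes lie mostly below 0, while the receptors and the negative regulators have medians of -0.13 and 0.044, with Ifnlr1 far below 0 and Ifnar1, Ptpn6 and Pias1 called lower. Ifng and Socs3 both lie at 1.31.

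Markers of other spleen cells moved in the same libraries. The marker counts below stand beside 30.0% of all tested genes called lower and 28.8% called higher. All 10 neutrophil markers were lower in TCM, and their summed level was 8682 to 13311 CPM in Vehicle and 1527 to 2622 CPM in TCM. Of 10 monocyte and macrophage markers 8 fell (sums 577 to 757 against 205 to 232 CPM). Much of that sum was Ly6c2, with 332, 472 and 503 CPM in Vehicle and 74.6, 108 and 124 CPM in TCM. Ly6c2 is also counted among the further interferon-stimulated genes, so these 2 lists are not independent. Of 8 B cell markers 5 fell (sums 1805 to 2155 against 1009 to 1178 CPM). Of 6 NK cell markers 4 were tested and 3 fell (61.3 to 68.4 against 27.1 to 29.3 CPM), with Klra4 at 0, and of 3 markers of CD4 T cells 2 fell (71.5 to 74.3 against 35.6 to 44.1 CPM).

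Conventional dendritic cell markers summed to 817 to 1021 CPM in Vehicle and 859 to 1085 CPM in TCM. Of their 6 tested genes 2 fell, 1 rose and 3 did not pass, with Cd209a at 0. Their log2 fold changes ran from -6.22 to 2.98, with a median of -0.052. Clec9a was among those that fell (4.73 ± 0.440 against 0.0542 ± 0.0532 CPM). The 8 markers listed for plasmacytoid dendritic cells, a main source of type I interferon, summed to 525 to 718 and 461 to 716 CPM. Of the 7 tested 3 fell and 4 did not pass, with a median log2 fold change of -0.20. Siglech, the defining gene of these cells, had few counts, with 18, 25 and 16 in Vehicle and 2, 1 and 2 in TCM. The 4 tested erythroid markers all fell (34.1 to 58.4 against 8.78 to 17.1 CPM), with Hba-a2 at 0. Whether these cell types account for any of the fall of the antiviral genes was not tested.

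The defining genes of cytotoxic T cells were present in both groups. Cd8b1 had 78.2 ± 5.69 CPM in Vehicle and 81.6 ± 4.43 CPM in TCM and did not pass, as did Cd3e (125 ± 16.8 and 137 ± 9.53 CPM), while Cd8a fell 1.59-fold and the granzyme gene Gzmb rose 5.86-fold to 2859 ± 309 CPM. Of the 8 such markers found 3 rose, 2 fell and 3 did not pass.

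**Figure D4:**
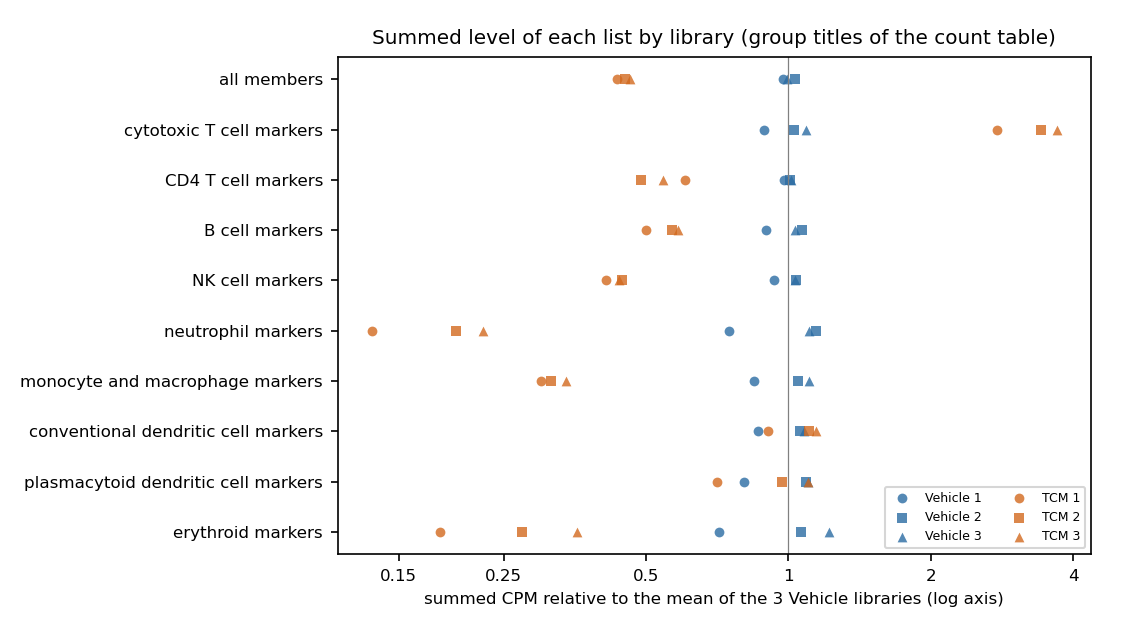
Summed CPM of the 39 antiviral genes and of each marker list in each library, relative to the mean of the 3 Vehicle libraries (log axis; count-table titles). The antiviral genes have all TCM libraries below all Vehicle libraries. So do the neutrophil, monocyte and macrophage, B cell, NK cell, CD4 T cell and erythroid markers. Dendritic cell lists overlap. The cytotoxic T cell sum is above, and Gzmb is among the 3 of its 8 genes called higher.

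Fold changes of all genes fell with exon length, from a median of 0.42 in the shortest of 5 equal groups of genes to -0.31 in the longest. The medians of the members in the same groups, from short to long, were -1.06 (7 genes), -1.11 (7), -1.78 (11), -1.54 (10) and -1.60 (4). In each length group the median of the members was below the median of all genes, while Bst2, in the shortest group, was above it. With the trend removed 37 members were lower and none higher, with a median of -1.51.

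**Figure D5:**
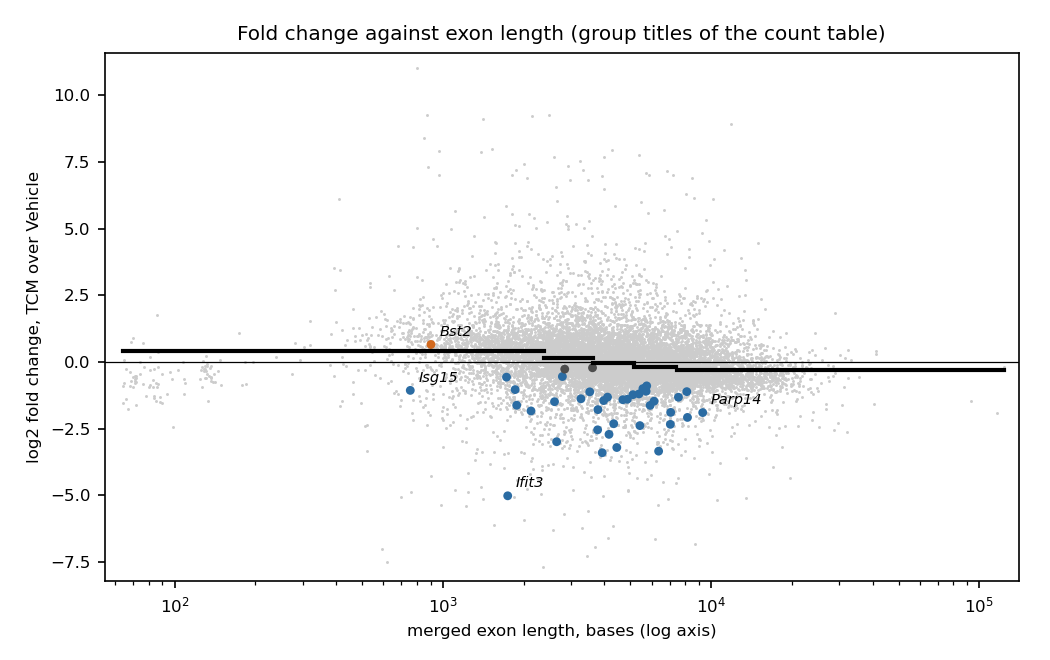
Log2 fold change of TCM over Vehicle (count-table titles) against merged exon length in bases (log axis) for all tested genes with a known length (grey) and the 39 antiviral genes (blue lower, orange higher, dark grey not passed); black bars are the medians of all genes in 5 equal groups by length. The bars step down from 0.42 to -0.31, and Bst2 lies close to the bar of its length group.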

How the data were processed

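RNA sequencing of 6 splenocyte libraries, 3 per group, was analysed. The authors deposited exon read counts for each gene symbol. Their second, normalized table holds a signal, which the authors deposited after scaling each library's counts. It was used here to check the titles, and whole reads could be recovered for 100% of its non-zero values (tolerance 0.1 reads). EdgeR on those reads under that table's titles called 3726 genes higher and 3584 lower. The tools were STAR 2.7.2d and DESeq2 1.28.1 with mm10, per the submitters' processing notes. The strand setting is not given in the sources used here, nor is the counting tool. The 92 spike-in rows, with 0 counts, were left out, and 27 date-like symbols are not named.

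After edgeR's filterByExpr, 12423 genes remained. They were TMM-scaled and compared between the groups in edgeR 4.0.16 (quasi-likelihood, no other covariate), and p-values were adjusted over all of them by Benjamini-Hochberg. Alternatives used limma 3.58.1 and DESeq2 1.42.0, in R 4.3.3. Depth was 17166687 to 25789381 counts per library, which limits precision for genes with few counts. The fit was tested on simulated data. Those data held neither the deviation of the replicate 1 libraries nor the length trend, so the test does not cover them. Same-numbered libraries deviated together (correlations of 0.60, 0.15 and 0.36 for numbers 1 to 3). The number was therefore used as a block in alternative settings, but not in the main fit. Vehicle 2 with TCM 3 (0.42) and Vehicle 3 with TCM 2 (0.27) also correlated, so the correlations set number 1 apart but do not tell numbers 2 and 3 from each other. The members and gene lists were chosen with earlier results of these data known. All members are named; values in each library are given for the 2 members of each role with the smallest p (all of a role of 3) and for members that were not lower. In the other pathway lists the 4 called genes with the smallest p, and those called against the list's median, are named. All ligands with counts, receptors and kinases are named as well. This rule was not applied to the marker lists. Older symbols were matched through RefSeq, and exon lengths were found for 99.0% of tested genes. A gene of the pathway lists is not reported here.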

Additional observations from a re-analysis of the deposited data

How the results depend on the processing

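Of the 39 antiviral genes 36 kept their direction and their side of the threshold under all 16 settings tried with the count table's titles; the exceptions were Bst2, Mx2 and Lgals3bp. Members called lower numbered 36 to 38 and their median ran from -1.65 (library totals alone) to -1.35 (without Vehicle replicate 1). Leaving out 1 library at a time gave 36 to 37 members lower, 0 to 1 higher and a median of -1.50 to -1.35, 50 to 54 of the further interferon-stimulated genes lower and 0 to 2 higher (median -1.19 to -1.04), 78 to 91 pathway genes outside the members lower and 2 to 4 higher, and 2818 to 4199 of all genes lower and 2878 to 4030 higher. Members called higher fell to 0 with the length trend removed, with and without the replicate block, where Bst2 became -0.054 and -0.023; the cause was not tested.

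Pathway genes outside the members called higher numbered 2, and became 4 in DESeq2, 5 with the replicate block and 6 without both replicate 1 libraries; the further interferon-stimulated genes called higher, 0 at first, became 1, 2 and 2. With library totals alone, 2364 genes were called higher, 37.4% of the calls were higher against 49.0%, and Ifnar2, Ifngr2, Il10rb and Socs1 turned to -0.17, -0.15, -0.21 and -0.084. With the length trend removed these were -0.11, -0.020, -0.063 and -0.041, and with the replicate block as well -0.12, -0.021, -0.062 and -0.087. Il10rb was -0.0015 with no filter on low counts. Without both replicate 1 libraries, Ifnar2 and Ifngr2 were -0.038 and -0.013, and Socs1 passed as higher at 0.25 (adjusted p = 0.00794, edgeR). Leaving out single libraries gave -0.055 to 0.13 for Ifnar2, -0.035 to 0.050 for Il10rb and -0.032 to 0.43 for Socs1, with the negative values not past the threshold. With the titles of the normalized table, a count of 36 members was higher and 1 lower (median 1.44), 53 and 0 of the further interferon-stimulated genes (median 1.09), and 87 and 2 of the pathway genes outside the members. The replicate block changed the call of 1 member, Lgals3bp, and of Ifngr1 among the other named genes.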

Other observations

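The GBP and IRG GTPases, which attack vacuoles that hold pathogens and respond mainly to interferon gamma, were lower in the TCM libraries together with the antiviral genes. All 18 tested of 19 listed fell, against 30.0% of all tested genes called lower. The median log2 fold change was -1.76 over the 18 and -0.018 over all tested genes. None of the 18 rose, also at an unadjusted p under 0.05 in edgeR, while Ifng itself rose 2.49-fold. Gbp10 had 25.5, 24.5 and 20.2 CPM in Vehicle and 2.77, 2.23 and 3.03 CPM in TCM, an 8.69-fold fall. Gbp9 fell 5.95-fold, Gbp7 5.01-fold and Gbp3 3.85-fold. These genes have close copies, so the split of reads among them is uncertain. In the same promoter windows, 9 of the 10 with a window (90.0%) held the ISRE core and 6 (60.0%) the GAS core. Of all tested genes with a window, 3.92% held the ISRE core and 8.64% the GAS core.

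Of 17 genes listed for the induction of interferon 9 fell, none rose and 8 did not pass, with a median of -0.46. At an unadjusted p under 0.05, 1 of the 17 was higher (edgeR). Among all tested genes 30.0% were called lower and 28.8% higher, with a median of -0.018. The endosomal DNA receptor gene Tlr9, known from B cells and plasmacytoid dendritic cells, fell 3.60-fold from 117 ± 4.38 to 32.4 ± 7.38 CPM. Tlr3 fell 4.85-fold at a low level (2.36 ± 0.255 to 0.483 ± 0.0778 CPM), Tlr4 fell 3.01-fold and the adaptor gene Traf3 1.71-fold. B cell markers were lower in the same TCM libraries (5 of 8), and their part in these values was not tested.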
